A study of Bos taurus with 44 samples.

Results

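Gene expression in the intercaruncular endometrium of cattle was compared between animals labelled NT (SCNT), for somatic cell nuclear transfer, and animals labelled CJ (cycle). The comparison rests on 10 of the 44 arrays of the series, chosen by their labels: the area is intercaruncular, and 1 dye carries RNA of an SCNT animal and the other RNA of a CJ animal. There were 5 SCNT and 5 CJ animals, each hybridised once in Cy3 and once in Cy5, so that the arrays form a closed loop in which every animal meets 2 animals of the other group. The labels state no treatment, age, day of pregnancy or of the cycle, breed, or number of cloned cell lines, and RNA of an animal was not pooled with that of another on these arrays. A further 10 arrays, on which the same 5 CJ animals met 4 animals labelled IAJ (AI), for artificial insemination, serve here to set SCNT beside AI through CJ. Of the remaining arrays, the 4 that set caruncular SCNT pools against AI pools are used here, for values of single genes.

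The bovine endometrium has caruncles, the sites where the placenta attaches, and between them the gland-bearing intercaruncular tissue, which secretes into the uterine lumen. In early pregnancy the trophoblast of the ruminant conceptus releases interferon tau, which induces interferon-stimulated genes in the endometrium and holds down the oxytocin receptor, so that the corpus luteum is kept. Nuclear transfer places the nucleus of a body cell into an egg without its own, and many of the resulting pregnancies fail around implantation. The stated purpose of the arrays with CJ was an indirect comparison of SCNT with AI, and the difference from CJ is described here in its own right.

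Each value is a log2 ratio of both dyes, averaged over the 2 spots of a probe and turned to SCNT minus CJ, so that 1 means a doubling of the signal. Of the 13824 probes, 8645 name 1 gene, covering 8073 genes. The numerator of the ratio is not stated. The likely numerator is Cy5: with it, genes induced by interferon come out above the CJ animals and OXTR, the oxytocin receptor, below them, which is known of early pregnancy in ruminants. The direction of those genes is therefore no finding. Under the other reading every sign below turns. Array medians lay between -0.0043 and 0.0096, and the SD of an array between 0.355 and 0.589. The array of SCNT animal 3 with CJ animal 2 had the lowest SD and the lowest correlation between its spots (0.782, against up to 0.935), and its values lay nearer to 0 than those of other arrays for many genes below. The values are ratios, so no level was measured, and the presence of a tissue marker could not be checked as such.

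In SCNT animals, most genes induced by interferon were higher than in CJ animals, as were FABP3, PLET1, LY6G6C and SLC2A1. Most stromal and smooth muscle markers and most genes of protein folding and export in the endoplasmic reticulum were lower, as were many matrix genes. By limma, with p-values adjusted over all probes by the Benjamini-Hochberg method and a threshold of 0.05, 1561 probes were higher (11.3% of those tested) and 1709 lower (12.4%). They cover 1026 genes that were higher and 1335 that were lower, counting 1 probe per gene, or 12.7% and 16.5% of the 8073 named genes. The shares of the gene lists below are read against these, and a share near them is no result about a list. The lists were chosen with earlier results of these data known, so a larger share is a description and no test. Most differences were small: the median size among the called probes was 0.45 on the log2 scale, with a median SE of 0.093, and 382 of the 3270 exceeded 1. The sign was the same on all 10 arrays for 714 of the higher and 788 of the lower probes. In whole tissue, fewer cells of a type and less RNA per cell cannot be told apart. Nothing in the labels says more of the samples than the animal. The fitted correlation between arrays that share an animal was 0.01, so the fit treated the 10 arrays as nearly independent. The p-values and SE therefore measure the spread between arrays, with every animal on more than 1 of them, and not that between animals. At a correlation of 0.3, 1913 probes passed in place of 3270.

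Among the 20 largest rises with the same sign on every array, 9 belong to the interferon response. RSAD2, an antiviral enzyme, lay at 5.0, 5.18, 5.87, 4.93 and 6.23 in SCNT animals 1 to 5, each the mean of the 2 arrays of an animal, and no array was below 4.41. The difference was 5.44 ± 0.18 (SE over 10 arrays of 5 SCNT and 5 CJ animals, adjusted p = 1.14e-09), or 43.5-fold. The other 8 were ISG15, MX1, IFI6, MX2, ZNFX1, IFI16, IFIT3 and EPSTI1, between 2.32 and 4.65. ISG15, a ubiquitin-like protein that interferon induces, was between 4.03 and 5.0 in the 5 animals.

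FABP3, a carrier of fatty acids in the cytoplasm, rose by 4.27 ± 0.33 (adjusted p = 1.34e-06). Its values in animals 1 to 5 were 5.19, 5.16, 2.53, 4.31 and 4.19. Animal 3 was the lowest through 1 of its arrays, the one with CJ animal 2 (0.84), while the other stood at 4.22. PLET1, a surface protein of epithelial progenitor and placental cells, rose by 4.06 ± 0.37 (adjusted p = 6.5e-06), with 5.48, 4.29, 2.58, 3.19 and 4.75 in the 5 animals. Here too the array of animal 3 with CJ animal 2 was the lowest, at 0.53, and the others spanned 2.74 to 5.90. LY6G6C, a small surface protein anchored to the membrane, was at 4.46, 3.23, 3.24, 2.91 and 4.27, a rise of 3.62 ± 0.19 (adjusted p = 5.45e-08).

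DKK1, a secreted inhibitor of Wnt signalling, rose by 3.03 ± 0.21, and NUPR1, a stress-induced chromatin protein, by 2.73 ± 0.14, with 2.07 as its lowest array. SLC2A1, the main glucose transporter of many cell types, rose by 2.58 ± 0.12 (adjusted p = 2.99e-08) and was at 2.33 to 2.86 in the 5 animals. CCDC152 rose by 2.36 and LOC282255 by 2.54. SCARA5, a ferritin receptor, C1R, a complement protease, and HPGD, which degrades prostaglandins, rose by 2.84 ± 0.39, 2.62 ± 0.24 and 2.64 ± 0.34. For these 3 genes the arrays with CJ animal 3 were low and those with CJ animal 4 high. On the arrays with CJ animal 3, SCARA5 stood at 0.63 and 0.27, C1R at 1.29 and 1.51, and HPGD at 1.01 and 0.79. With CJ animal 4 the same genes stood at 3.53 and 4.61, 3.80 and 3.61, and 3.03 and 3.53.

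The largest fall was that of OXTR, the oxytocin receptor, at -3.69, -3.15, -2.73, -3.91 and -4.22 in SCNT animals 1 to 5 (-3.54 ± 0.17, adjusted p = 2.99e-08). SNAI2, a transcription factor of mesenchymal cells, had the narrowest range among the 20 largest falls, between -3.55 and -2.35 on the 10 arrays (-2.97 ± 0.11, adjusted p = 2.99e-09). The collagen genes COL6A3, COL1A2, COL1A1, COL3A1 and COL12A1 stood at -3.12, -3.04, -2.86, -2.85 and -2.36, all past the threshold, and no array of any of them was above -1.12. Genes of the contractile cytoskeleton were in the same group: ACTG2 (-2.67), TAGLN (-2.28) and CNN1 (-2.18). GADD45G, a growth arrest gene, fell by 2.86 ± 0.20, PLK2, a kinase of the cell cycle and of stress, by 2.28 ± 0.25 and TUBA1A, an alpha-tubulin, by 2.22 ± 0.13. PLK2 was at -2.65, -2.75, -1.10, -2.60 and -2.28 in the 5 animals, with the smallest fall in animal 3. CCN3 and TNC, secreted proteins of the matrix, fell by 2.50 ± 0.33 and 2.39 ± 0.26, with smaller falls on the arrays with CJ animal 3 (-0.64 and -1.05 for CCN3, -1.56 and -0.55 for TNC). The fall was smaller on the array of SCNT animal 3 with CJ animal 2 as well, at -0.90 for CCN3 and -1.19 for TNC.

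**Figure D1:**
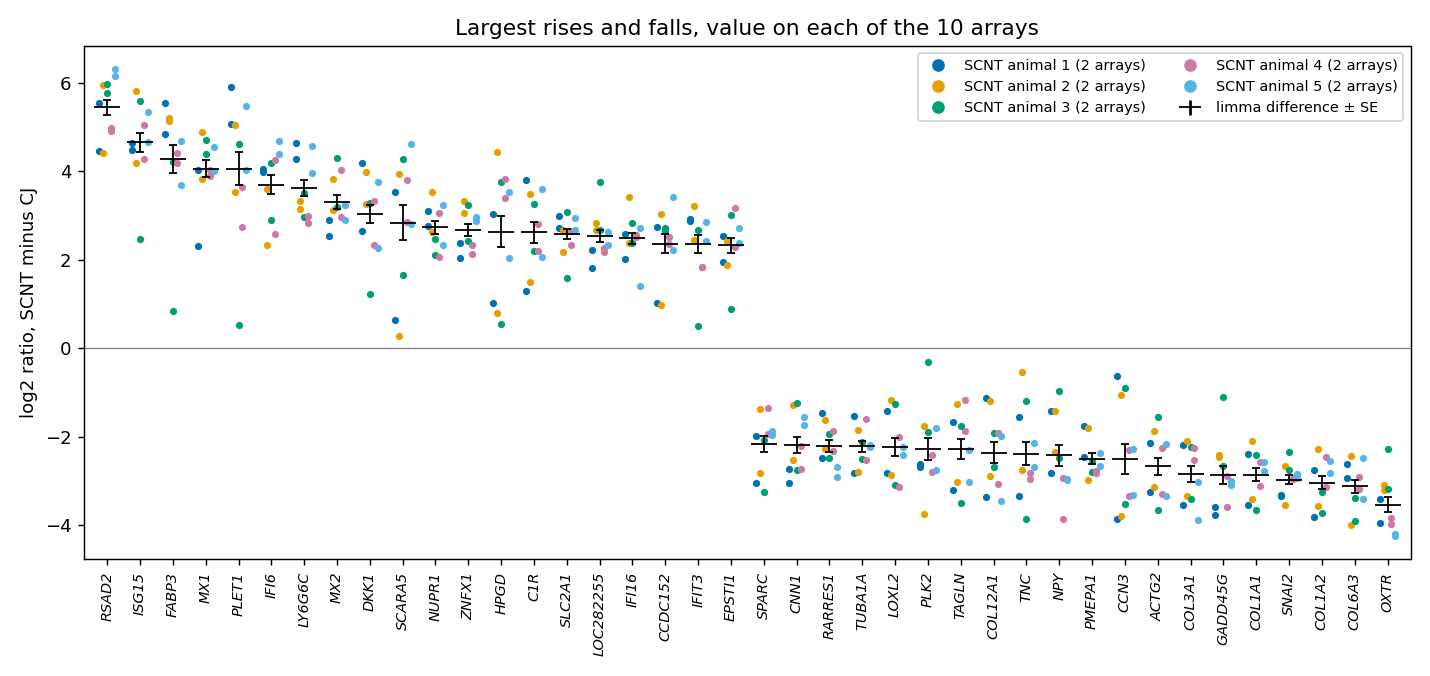
Log2 ratio SCNT minus CJ (vertical axis) of the 20 largest rises and 20 largest falls with 1 gene symbol and the same sign on all 10 arrays; each point is 1 array, coloured by its SCNT animal, and the black mark is the limma difference ± SE. RSAD2 and ISG15 lead the rises, OXTR and COL6A3 the falls, and SCARA5, HPGD and CCN3 spread widely while SNAI2 and SLC2A1 do not.

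Of 40 measured interferon-stimulated genes, 36 rose (90.0%, against 12.7% of all named genes) and 0 fell. The median was 1.11 against -0.01 for all named genes, and 26 of the 36 were above 0 on all 10 arrays. Members from several steps of the response were among them. The sensors of viral RNA and DNA IFIH1 and IFI16 rose by 1.12 and 2.48, the transcription factors IRF7, IRF9 and IRF1 by 1.07, 1.02 and 0.89, and the kinase EIF2AK2 by 0.93. The enzymes that attach and remove ISG15 rose with it: UBA7 by 1.77, UBE2L6 by 0.80, HERC6 by 1.32 and USP18 by 1.83. CMPK2, a nucleotide kinase whose gene lies beside RSAD2, rose by 2.17 ± 0.10, and IFIT5, which binds foreign RNA, by 1.91 ± 0.09. The 4 that did not pass the test were OASL (0.21), SAMHD1 (0.04), CXCL9 (0.00) and CXCL11 (-0.04), while the related chemokine CXCL10 rose by 1.10. The list's median in SCNT animals 1 to 5 was 1.14, 1.51, 1.00, 1.22 and 1.39, with the lowest value in animal 3. Because the sign convention was chosen with these genes, the direction of the list supports nothing.

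Genes of folding and export in the endoplasmic reticulum were lower in SCNT than in CJ animals. The endoplasmic reticulum takes up new secretory and membrane proteins, folds and glycosylates them and sends them to the Golgi in coated vesicles. Of 86 measured genes of this pathway, 57 fell and 4 rose, or 66.3% and 4.7%, against 16.5% and 12.7% of all named genes. The list was chosen with earlier results of these data known, so this excess is described and is no test. The median was -0.45, beside -0.01 for all named genes, and 73 of the 86 were below 0. Of the 57, 40 were below 0 on all 10 arrays. SEC61B, a subunit of the channel that takes proteins into the endoplasmic reticulum, lay between -1.21 and -0.94 on all arrays, with -0.98, -1.01, -1.18, -1.11 and -1.10 in SCNT animals 1 to 5 (-1.08 ± 0.06, adjusted p = 7.01e-08). It had the smallest p of the list and was among the 10 falls with the smallest p of all named probes.

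Chaperones and folding enzymes made up the lowest group, with 23 of 26 lower, none higher and a median of -0.93. HSPA5, the main chaperone of the compartment, fell by 1.02 ± 0.08 (adjusted p = 1.83e-06) and was between -1.24 and -0.57 on every array. HSP90B1, its HSP90 relative, fell by 1.10 ± 0.11, and the lectin chaperone CALR by 0.66 ± 0.09. The disulphide isomerases PDIA4, PDIA6, P4HB and PDIA3 fell by 1.36, 1.14, 1.00 and 0.82. P4HB also serves as a subunit of the enzyme that hydroxylates collagen prolines, and FKBP10, a prolyl isomerase that acts on collagen, had the largest fall of the list (-1.64 ± 0.16, arrays from -2.94 to -0.74). CRELD2 fell by 1.25 ± 0.10 and MANF by 1.09 ± 0.10, both induced when folding is disturbed, and DNAJB11, a partner of HSPA5, by 1.14 ± 0.11. SERPINH1, the collagen-specific chaperone of the same compartment, was counted with the protease inhibitors and fell by 2.04 ± 0.16.

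Of the genes for translocation, signal cleavage and glycosylation, 17 of 23 were lower and none higher by the 1 probe counted per gene, with a median of -0.46. SEC62 was counted by a probe at 0.22 that did not pass limma's test (adjusted p = 0.0864). Its other probe rose by 0.51 ± 0.07 (adjusted p = 0.000206). SSR1 fell by 0.76 ± 0.10 on the counted probe and stood at 0.235 ± 0.13 on its other probe (adjusted p = 0.242). They include SEC61A1 (-0.93 ± 0.10), and the oligosaccharyltransferase subunits RPN2 (-0.85 ± 0.09) and DAD1 (-0.68 ± 0.07). Vesicle coats and cargo receptors followed with 16 of 26 lower and 1 higher, at a median of -0.41. KDELR3 and KDELR2, which return chaperones to the endoplasmic reticulum, fell by 1.21 and 0.99, COPZ2, a coat subunit, by 1.20, and SEC13, part of the coat of outgoing vesicles, by 0.85 ± 0.07. The stress sensors, their transcription factors and the degradation machinery held 3 of 11 higher and 1 lower, with a median of -0.01. DDIT3, a transcription factor of the stress response, rose by 0.58 ± 0.10, SYVN1, a ubiquitin ligase for misfolded proteins, by 0.37 ± 0.07 and DERL3, of the same machinery, by 0.34 ± 0.08. ATF4 (0.14 ± 0.06) and HERPUD1 (-0.01 ± 0.07) did not pass the test, and CREB3L2, a factor that drives secretory genes, fell by 0.58 ± 0.07. TMED4, a cargo receptor, was the remaining rise (0.50 ± 0.08).

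The median of this list was -0.55, -0.38, -0.30, -0.56 and -0.61 in SCNT animals 1 to 5, and on the 10 arrays it lay between -0.66 and -0.14. The value nearest to 0 came from the array of SCNT animal 3 with CJ animal 2. Without that array 56 genes were lower and the median was -0.51, and with each animal left out in turn between 52 and 56 were lower. Stromal fibroblast markers, none of which is in this list, were lower too: their median was -1.0, -1.65, -2.45, -1.29 and -1.70 in the same 5 animals. In animal 3 the median of the endoplasmic reticulum list was -0.14 with CJ animal 2 and -0.52 with CJ animal 1. The part of stromal cells in the fall of the list was not tested.

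**Figure D2:**
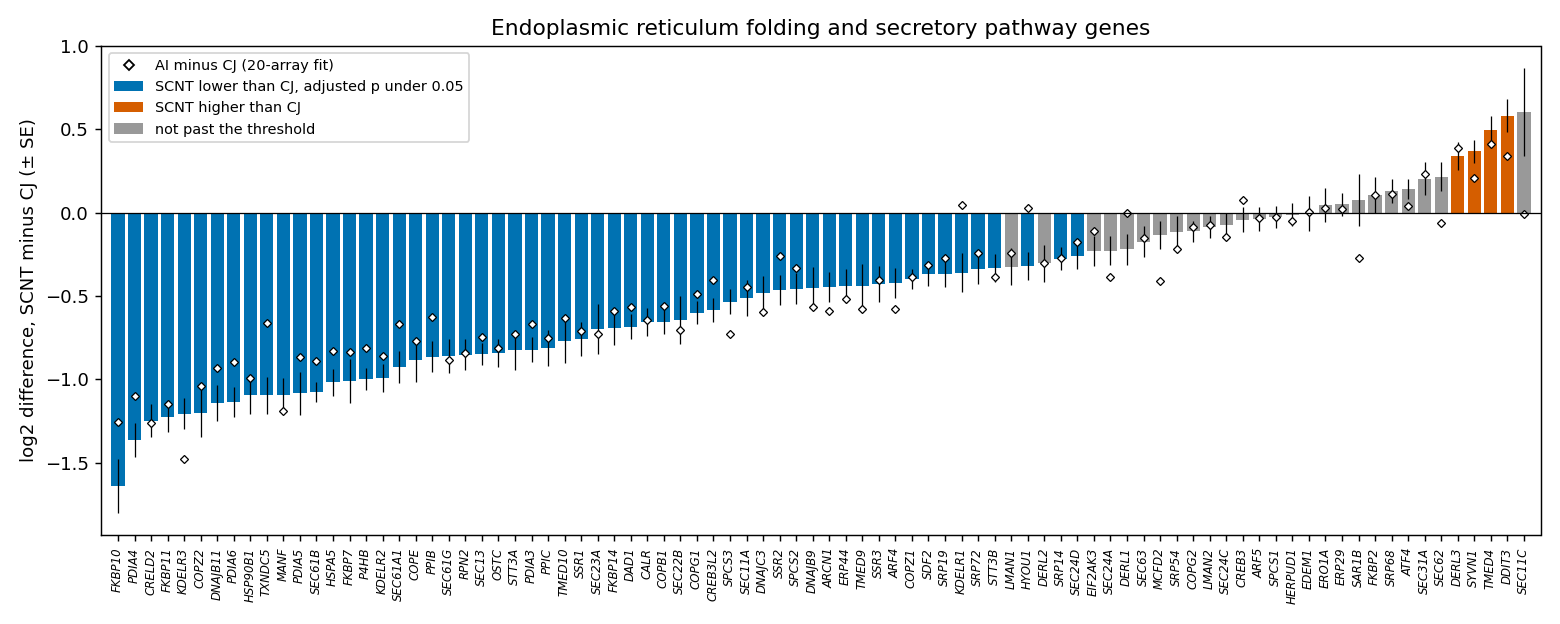
Log2 difference SCNT minus CJ ± SE (vertical axis, bars) of the 86 genes of folding and export in the endoplasmic reticulum, coloured by the call at an adjusted p under 0.05; open diamonds are AI minus CJ from the fit of 20 arrays, which shares the CJ animals. Bars run from FKBP10 (-1.64) to SEC11C (0.60, not past the threshold), with 57 lower and 4 higher.

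The extracellular matrix, the scaffold that stromal cells deposit, was lower in SCNT animals beyond the collagens. Of 69 proteoglycans, elastic fibre and matricellular genes, 37 fell and 5 rose (53.6% and 7.2%, against 16.5% and 12.7% of all named genes), with a median of -0.35 that was between -0.42 and -0.29 in each of the 5 SCNT animals. LOXL2 and LOXL1, which cross-link collagen and elastin, fell by 2.24 ± 0.21 and 1.23 ± 0.10, the fibrillin FBN2 by 1.79 ± 0.18, the thrombospondin THBS2 by 0.86 ± 0.08 and CHSY1, which builds chondroitin sulphate, by 0.85 ± 0.09. AGRN, a heparan sulphate proteoglycan of basement membranes, went the other way with a rise of 1.5 ± 0.14 (adjusted p = 8.86e-06, arrays from 0.43 to 2.16). The matrix proteases and their inhibitors held 22 falls (34.4%) and 6 rises (9.4%) of 64. Besides SERPINH1 these were TIMP1, an inhibitor of metalloproteases (-1.65 ± 0.13), HTRA1, a secreted serine protease (-1.99 ± 0.16), SPARC, a collagen-binding protein (-2.17 ± 0.18), PCOLCE, which helps trim procollagen (-1.76 ± 0.16), and MMP7, a metalloprotease of epithelium (-1.94 ± 0.18). The urokinase PLAU and its receptor PLAUR fell by 1.60 ± 0.17 and 0.92 ± 0.10.

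Of 42 genes of the TGF-beta, activin and BMP pathway, which drives matrix production in many tissues, 17 fell and 4 rose (40.5% and 9.5%, against 16.5% and 12.7% of all named genes), with a median of -0.14. With a correlation of 0.3 between arrays that share an animal, in place of the fitted 0.01, 11 fell. Over all probes that setting took the falls from 1709 to 989 and the rises from 1561 to 924. The list counts at 0.3, here and below, are to be read against that general loss of calls. PMEPA1, a target and feedback inhibitor of TGF-beta signalling, fell by 2.50 ± 0.12 (adjusted p = 3.39e-08) and was between -2.99 and -1.77 on every array. The ligand TGFB1 fell by 0.57 ± 0.09, LTBP1, which holds the latent ligand in the matrix, by 1.88 ± 0.19, and the co-regulator TGFB1I1 by 1.13 ± 0.13. The co-receptor TGFBR3 rose by 1.14 ± 0.20. TGIF1, a repressor of the pathway, fell by 0.54 ± 0.10. In SCNT animal 4 the median of the list was -0.04, the closest to 0 of the 5 animals.

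All 9 stromal fibroblast markers fell, with a median of -1.62, led by the collagens and including LUM (-1.62 ± 0.23), VIM (-1.40 ± 0.17) and DCN (-0.95 ± 0.15). The median of the list ranged from -0.67 over the arrays with CJ animal 3 to -2.45 over those with CJ animal 2, so the size of the fall differed with the CJ animal. Of 9 smooth muscle markers, 7 fell (77.8%) and 0 rose (median -0.75), among them the kinase MYLK at -2.01 ± 0.19, whose other probe gave -1.93. Of 11 epithelial markers 6 rose (54.5%) and 2 fell (18.2%), with a median of 0.28. Of all named genes 12.7% rose and 16.5% fell, so the share of epithelial falls is near that of all named genes. At a correlation of 0.3 the rises numbered 3 and the falls 1, and the falls numbered 1 without SCNT animal 1, 3, 4 or 5 or CJ animal 1, 2 or 5. The tight junction genes CLDN3 and CLDN7 rose by 1.28 ± 0.12 and 0.62 ± 0.09 and the adhesion gene CDH1 by 0.44 ± 0.11, while KRT19, a keratin, fell by 1.01 ± 0.22. Of the blood and immune cell lists, those of B and plasma cells (5 measured genes), macrophages and dendritic cells (8), neutrophils (6) and red blood cells (3) had no member past the threshold by limma, with medians of 0.04, 0.08, 0.04 and 0.04, and without SCNT animal 1 there was 1 in the macrophage list. Of 12 T and NK cell markers 3 rose (25.0%), GNLY by 0.42, CD247 by 0.32 and NKG7 by 0.26. This count was 0 without SCNT animal 5 and 1 without SCNT animal 1, CJ animal 1 or CJ animal 4. It was 0 at a correlation of 0.3, 2 at 0.12, the value fitted over 20 arrays, and 1 in the fit of 20 arrays or on the second spot alone. Whether shifts in cell types account for the gene differences was not tested.

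Of 70 genes of fatty acid uptake, storage and oxidation, 22 rose and 7 fell (31.4% and 10%, against 12.7% and 16.5% of all named genes), with a median of 0.12. At a correlation of 0.3 the rises numbered 12. Beside FABP3, the rises included the fatty acid carrier SLC27A6 (1.71 ± 0.31, with 1.54, 0.23, 2.0, 1.60 and 3.17 in SCNT animals 1 to 5), ACSS1, which activates acetate in mitochondria (1.00 ± 0.11), and CPT1A, which admits fatty acids to mitochondria (0.78 ± 0.10). The 3 falls with the smallest p were the desaturase FADS1 (-0.93 ± 0.10), the elongase ELOVL5 (-0.72 ± 0.08) and ACAT2, of sterol synthesis (-0.85 ± 0.11). FASN, the fatty acid synthase, was not among these falls and rose by 0.74 ± 0.13 on 1 probe. Its other probe gave 0.24 ± 0.10 and did not pass limma's test (adjusted p = 0.109). Of 49 genes for glucose, glycogen, fructose and pentoses, 8 rose (16.3%) and 14 fell (28.6%). FBP1, an enzyme of gluconeogenesis, rose by 1.28 ± 0.22, and PFKFB3, which sets the pace of glycolysis, by 1.14 ± 0.19, whereas LDHA, which turns pyruvate to lactate, fell by 1.29 ± 0.17. The count of 14 falls became 9 without SCNT animal 2, 3, 4 or 5 or CJ animal 2 or 4 and 7 without CJ animal 1 or at a correlation of 0.3.

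Of the amino acid and polyamine genes, 12 were higher (19.4%) and 13 lower (21.0%) of 62, and the lower count was 8 without SCNT animal 4 or at a correlation of 0.3. PYCR1, which makes proline, fell by 2.14 ± 0.12 (adjusted p = 1.08e-07, arrays from -2.63 to -1.28), and OAT, which links ornithine to proline, fell by 1.06 ± 0.09. PRODH, which breaks proline down, rose by 1.20 ± 0.13 (adjusted p = 2.02e-05), with every array between 0.35 and 1.83. GPT2, an alanine transaminase of mitochondria, rose by 2.31 ± 0.26, and SAT1, which breaks down polyamines, by 1.09 ± 0.13.

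Among 56 carriers of amino acids, nucleosides and vitamins, 14 rose (25.0%) and 12 fell (21.4%), with 9 rises at a correlation of 0.3. SLC15A1, which takes up small peptides, rose by 1.61 ± 0.18 (1.23, 2.31, 0.61, 1.86 and 2.02 in SCNT animals 1 to 5), SLC31A2, a copper carrier, by 0.84 ± 0.08 and SLC22A5, the carnitine carrier, by 1.25 ± 0.17. STRA6, the vitamin A receptor, fell by 1.38 ± 0.14. Of 61 ion pumps and channels, 10 rose (16.4%) and 8 fell (13.1%), near the shares of all named genes; the lower count was 4 at a correlation of 0.3 and 5 without SCNT animal 4, SCNT animal 5 or CJ animal 5. CA2, a carbonic anhydrase, rose by 1.97 ± 0.25 and SCNN1A, a subunit of the epithelial sodium channel, by 0.66 ± 0.08, whereas ATP1B3, a subunit of the sodium pump, fell by 0.90 ± 0.08. Of 70 lysosome genes, 19 rose (27.1%) and 12 fell (17.1%), with 6 falls at a correlation of 0.3. CST3 and CST6, inhibitors of cathepsins, rose by 1.37 ± 0.11 and 1.23 ± 0.15, NEU1, a sialidase, by 0.92 ± 0.10, GRN, a lysosomal growth factor, by 0.90 ± 0.09 and cathepsin CTSS by 0.98 ± 0.12. LGMN, a lysosomal protease, rose by 1.29 ± 0.15 on 1 probe, while its other probe gave -0.13 ± 0.08 (adjusted p = 0.301).

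Peptide hormones and their receptors gave 9 falls and 3 rises of 60 (15.0% and 5.0%), no more than the 16.5% and 12.7% of all named genes, so the values are of single genes. After OXTR came NPY, a neuropeptide (-2.42 ± 0.24), the natriuretic peptide NPPC (-1.07 ± 0.11), galanin, GAL (-0.97 ± 0.11), the parathyroid hormone-like PTHLH (-1.47 ± 0.18) and the tachykinin TAC3 (-1.33 ± 0.17). NPY was lowest in SCNT animals 4 and 5 (-3.40 and -2.97) and at -2.12, -1.88 and -1.72 in the others. In the steroid and prostaglandin list, 9 of 48 rose (18.8%) and 6 fell (12.5%). The progesterone receptor PGR fell by 1.17 ± 0.11, with -1.31, -1.14, -0.57, -1.33 and -1.51 in the 5 animals. HSD11B2, which inactivates cortisol, rose by 1.05 ± 0.14, SULT1A1, a sulphotransferase, by 1.14 ± 0.13 and PGRMC1, a membrane protein linked to progesterone, by 0.94 ± 0.13. ESR1, the oestrogen receptor (-0.31 ± 0.15, adjusted p = 0.161), and SERPINA14, a uterine serpin (0.15 ± 0.43, arrays from -2.20 to 3.09), did not pass the test. PTGS2, which makes prostaglandins, was at -0.04 ± 0.13 on 1 probe and 0.89 ± 0.31 on the other (adjusted p = 0.0532), so neither passed. Retinoid handling had 6 falls (18.8%) and 3 rises (9.4%) of 32, led by RARRES1, a retinoid-induced gene (-2.21 ± 0.14), with the binding proteins CRABP1 (-1.80 ± 0.27) and CRABP2 (-1.97 ± 0.22, its other probe 0.23 ± 0.12) and rises of the reductase DHRS3 (0.75 ± 0.12) and the dehydrogenase ALDH1A1 (0.86 ± 0.14).

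Among 63 immediate early and stress-induced factors, 16 rose (25.4%) and 10 fell (15.9%). EPAS1, a hypoxia-responsive factor, rose by 1.81 ± 0.18, TXNIP, which binds thioredoxin, by 1.77 ± 0.19, and NFKBIA, the inhibitor of NF-kappaB, by 0.71 ± 0.08, while KLF10 fell by 0.87 ± 0.10. In the Wnt list, 5 of 51 rose (9.8%) and 13 fell (25.5%). The inhibitor DKK1 rose and its relative DKK3 fell by 1.18 ± 0.11, as did AXIN2, a standard target of the pathway (-0.97 ± 0.09), and the ligand WNT6 (-0.86 ± 0.10). Of the 27 Notch and Hedgehog genes, 4 rose (14.8%) and 6 fell (22.2%). The ligand IHH, known as a progesterone-induced gene of uterine epithelium, fell by 0.85 ± 0.16, the Notch target HES1 by 0.79 ± 0.12, and NR2F2, a nuclear receptor that acts downstream of IHH, rose by 0.48 ± 0.09. The 6 falls became 3 at a correlation of 0.3 or without SCNT animal 4 or CJ animal 5, and 2 without CJ animal 1. Among growth factors and receptors, ANGPTL2 (-1.25 ± 0.11) and IGFBP6 (-1.69 ± 0.18) fell, and the receptors ERBB2 (0.99 ± 0.11) and IL6R (1.44 ± 0.21) and the ligand FGF9 (0.75 ± 0.10) rose. Of the 71 in that list 13 rose (18.3%) and 9 fell (12.7%), with 6 and 5 at a correlation of 0.3; the higher count was between 6 and 8 without SCNT animal 3, 4 or 5 or CJ animal 1, 2, 4 or 5.

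Developmental transcription factors had 8 rises and 8 falls of 61, each 13.1% and so near the 12.7% and 16.5% of all named genes. The counts were 5 and 5 at a correlation of 0.12 and 4 and 5 at 0.3, with 5 rises over the means of the SCNT animals, 4 or 5 rises without SCNT animal 1, 4 or 5 or CJ animal 1, 4 or 5, and 5 falls without SCNT animal 2 or 3 or CJ animal 1 or 2. Beside SNAI2, MSX1 fell by 1.09 ± 0.09 on 1 of its 2 probes (0.03 ± 0.08 on the other), and HOXA9 rose by 0.69 ± 0.09. Of 108 genes of DNA methylation and chromatin, 21 fell (19.4%, near the 16.5% of all named genes) and 8 rose (7.4%, against 12.7%). At a correlation of 0.3 the falls numbered 13 and the rises 5, and without CJ animal 4 there were 13 falls and without CJ animal 1 there were 5 rises. HDAC2, a histone deacetylase (-0.95 ± 0.09), PRMT1, an arginine methyltransferase (-0.89 ± 0.08), and CHD3, a remodelling ATPase (-0.86 ± 0.08), fell, and EED, of the Polycomb complex, rose by 0.57 ± 0.07. Of 33 imprinted genes, 8 fell (24.2%) and 5 rose (15.2%), not far from the 16.5% and 12.7% of all named genes, and 5 fell in the fit of 20 arrays. H19, a non-coding RNA, had the largest difference of the list (-1.99 ± 0.25, arrays from -3.31 to -0.18). GNAS (-0.44 ± 0.07) and HM13 (-0.53 ± 0.07) also fell, and CD81, a membrane protein, rose by 0.89 ± 0.11. The arrays do not tell the parental alleles apart.

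Of 66 antioxidant genes, 19 fell (28.8%) and 14 rose (21.2%); the higher count was 8 at a correlation of 0.3 or without SCNT animal 5 and 9 without CJ animal 4. The peroxidase GPX8 and the peroxiredoxin PRDX4, both of the endoplasmic reticulum, fell by 1.08 ± 0.10 and 0.77 ± 0.10, PRDX5 by 0.94 ± 0.10 and the selenoproteins SELENOW and SELENOF by 0.85 ± 0.12 and 0.43 ± 0.06, whereas MGST1 rose by 0.95 ± 0.12. Among 38 iron and haem genes, 8 rose (21.1%) and 4 fell (10.5%), the higher count being 4 at a correlation of 0.3 and 4 or 5 without SCNT animal 3, 4 or 5 or CJ animal 1, 4 or 5. The haem enzymes ALAS1 and ALAD rose by 0.87 ± 0.10 and 1.18 ± 0.12 and the ferritin chain FTH1 by 0.83 ± 0.08. Among 26 annexins, S100 proteins and galectins, 6 rose (23.1%) and 7 fell (26.9%): ANXA5, ANXA2 and ANXA6 by 1.37, 0.92 and 1.18, against rises of ANXA8L1 (1.20) and S100A13 (1.24). Coagulation genes had 10 falls (26.3%) and 4 rises (10.5%) of 38, such as PROS1, a cofactor of anticoagulation (-1.23 ± 0.16), and VKORC1, of the vitamin K cycle (-0.71 ± 0.06), and the rises numbered 2 at a correlation of 0.3 or without SCNT animal 1, SCNT animal 4 or CJ animal 4. Of 56 apoptosis genes, 12 rose (21.4%) and 6 fell (10.7%); the survival genes MCL1 and BCL2L1 and the death receptor FAS rose by 0.75, 0.77 and 0.81. The falls numbered 2 without SCNT animal 5, and at a correlation of 0.3 there were 7 rises and 2 falls.

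Mucin and glycosylation genes had 17 falls (28.3%) and 7 rises (11.7%) of 60, with 8 and 3 at a correlation of 0.3, 11 falls without CJ animal 1 and 3 or 4 rises without SCNT animal 2, SCNT animal 5 or CJ animal 4. The transferases GALNT1 (-0.64 ± 0.07) and ST3GAL5 (-0.56 ± 0.08) fell and B4GALNT2 (1.26 ± 0.17) rose. Of 29 aminoacyl-tRNA synthetase genes 8 fell and 1 rose (27.6% and 3.4%, against 16.5% and 12.7% of all named genes), at a median of -0.11. At a correlation of 0.12 the falls numbered 5 and at 0.3 they numbered 3, with the single rise lost at both, and the falls numbered 4 without CJ animal 1, 2 or 5 and 5 without SCNT animal 3, 4 or 5 or CJ animal 4. EPRS1, which charges tRNA with glutamate and proline, fell by 0.67 ± 0.09 and TARS1, for threonine, by 0.52 ± 0.09. Of 10 endothelial markers, 4 rose and 2 fell. Of 11 clock genes 3 rose and 1 fell, and of 27 ephrins and semaphorins 2 rose and 3 fell. The shares of endothelial and clock rises were above the 12.7% of all named genes, in lists of few genes. The share of endothelial falls was slightly above the 16.5% of all named genes. The shares of clock falls and of ephrin rises and falls were below those of all named genes. The endothelial rises numbered 2 at a correlation of 0.12 and 1 at 0.3, and 1 or 2 without SCNT animal 1, 4 or 5 or CJ animal 1, 4 or 5 and the falls 1 without SCNT animal 3 or CJ animal 1 or 2. At a correlation of 0.3 the single clock fall was lost and the ephrin rises numbered 1. The clock rises numbered 5 without CJ animal 3, and the ephrin falls 1 without SCNT animal 4.

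**Figure D3:**
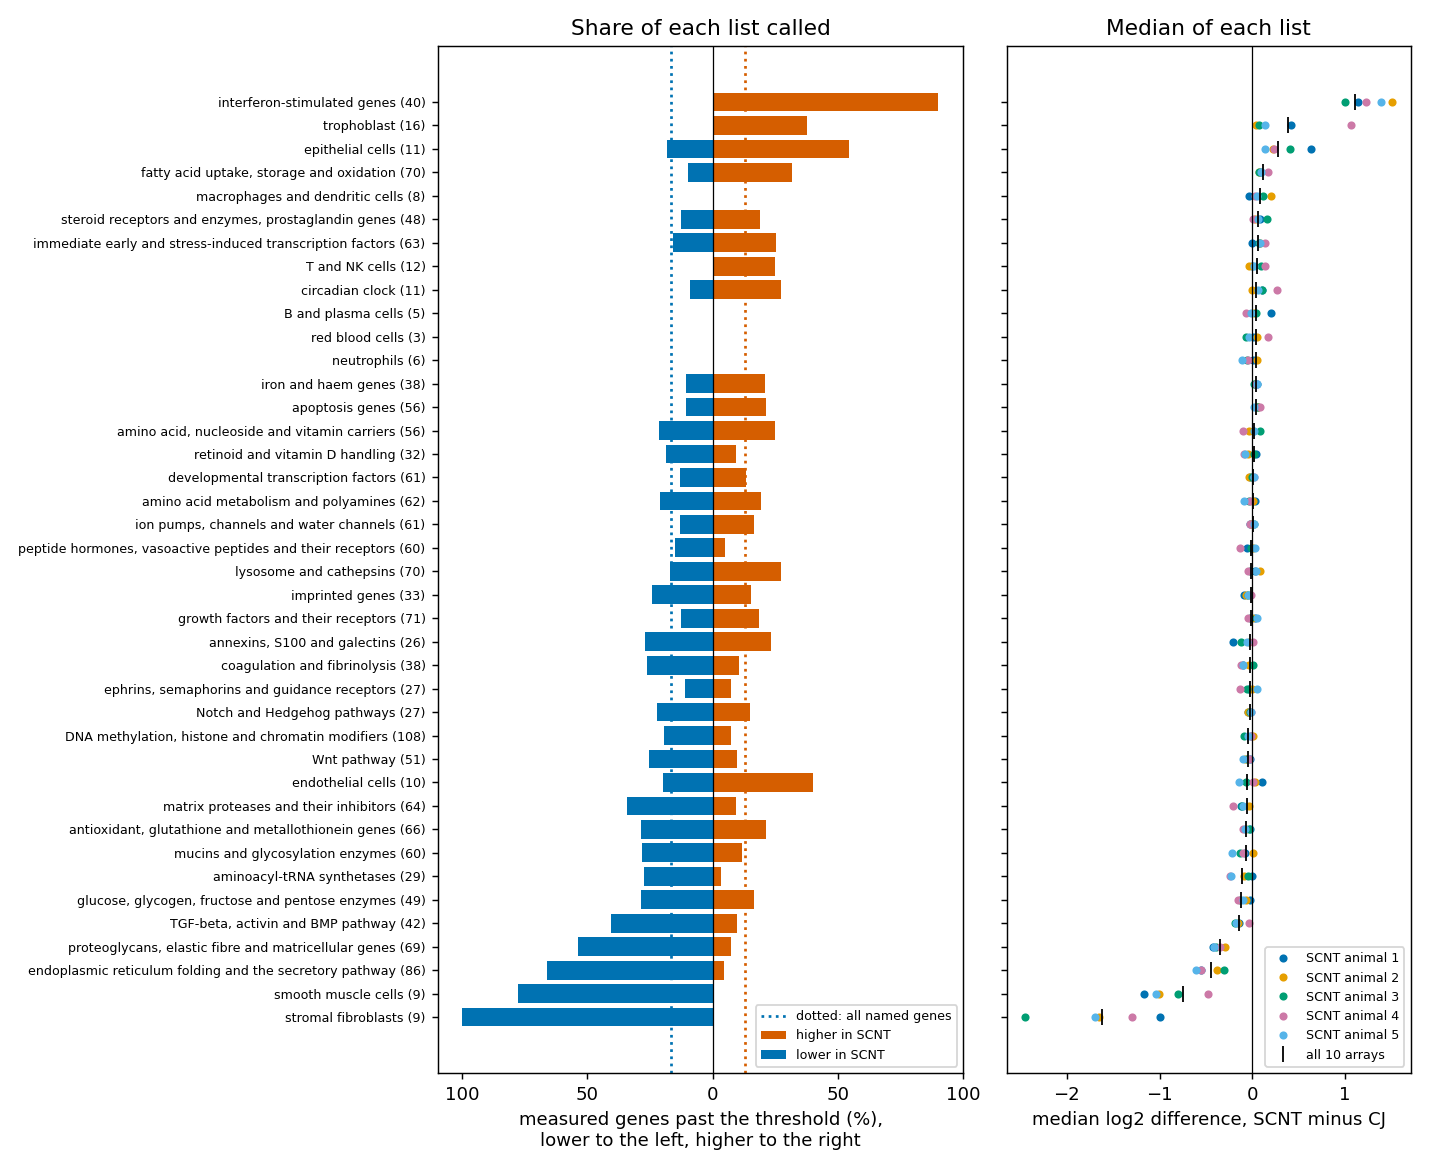
Left, the share of measured genes of each list that was lower (blue, to the left) or higher (orange, to the right) in SCNT than in CJ animals, with the number of measured genes in brackets and dotted lines for all named genes; right, the median log2 difference of each list in each SCNT animal (points) and over the 10 arrays (bar). The interferon list (36 of 40 higher) stands at 1 end and stromal fibroblast markers (9 of 9 lower) at the other, and the trophoblast list is the one in which SCNT animal 4 lies far to the right, at 1.06.

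Genes of trophoblast, the outer cell layer of the conceptus, were high in some SCNT animals and near the CJ animals in others. Of 16 measured genes 6 rose (37.5%, against 12.7% of all named genes) and 0 fell, with a median of 0.38. The 6 rises were 3 at a correlation of 0.12 between arrays that share an animal, 1 at 0.3, 1 with array weights and 2 over the means of the SCNT animals, so most of these calls depend on the setting, and the median in SCNT animals 1 to 5 was 0.41, 0.04, 0.07, 1.06 and 0.14. PAG2, a pregnancy-associated glycoprotein that trophoblast secretes, stood at 0.54, -0.21, 0.21, 2.31 and 0.15 and did not pass the test (0.60 ± 0.26, adjusted p = 0.122). IFNT2, an interferon tau gene, stood at 0.80, 0.01, 0.16, 2.17 and 0.14 (0.66 ± 0.23, adjusted p = 0.0607). In both genes the 2 arrays of animal 4 were higher than those of any other animal. TKDP1, a trophoblast protein of the Kunitz domain family, was highest in animal 1 instead: 2.35, 0.09, 0.12, 1.48 and 0.36 (0.88 ± 0.27, adjusted p = 0.0279).

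SCNT animals 4 and 1 were the highest for other members too. PAG17 was at 1.84, 0.33, -0.22, 3.15 and 0.69 on the probe with the widest spread, and its other probes gave differences of 0.27 and 0.54. The list counts PAG17 by the probe at 0.27, which did not pass limma's test (adjusted p = 0.194), so PAG17 is not among the 6 rises. The call of the PAG17 probe with the widest spread was lost without SCNT animal 1, 4 or 5 or CJ animal 4 or 5. That of TKDP1 was lost without SCNT animal 1 or 4 or CJ animal 1, 4 or 5. PRP4 and CSH2, relatives of prolactin and growth hormone made by trophoblast, reached 2.07 and 0.85 in animal 4, with no more than 0.76 and 0.27 in the others. PAG19, which was not in the list, was at 1.27, 0.21, 0.07, 2.61 and 0.71. The transcription factors CDX2, GCM1 and DLX3 stayed between -0.14 and 0.31 in all animals. HAND1, another transcription factor of the list, was among the 6 rises. Its call was lost in 8 of the 10 fits without 1 animal, with differences from 0.21 to 0.48. KRT8, which uterine epithelium also expresses and which the epithelial list counts too, was also among the 6 rises. KRT8 was highest in animal 1 (0.82). With 1 animal left out, the number that rose went from 6 to 0 without CJ animal 5, to 1 without SCNT animal 1 or CJ animal 1, and to 2 without SCNT animal 4, SCNT animal 5 or CJ animal 4. Among the largest rises of the comparison, PLET1, LY6G6C and FABP3 were highest in animal 1, whose trophoblast median was below that of animal 4 alone. PLET1 and LY6G6C were lower in animal 4 than the median of the 5, and RSAD2 and ISG15 were highest in animals 5 and 2. Whether trophoblast tissue had a part in these rises was not tested. In the caruncular pools of SCNT against AI, PAG2 stood at 2.82 in 1 pair and 1.04 in the other, and TKDP1 at 3.0 and 1.48. No test was made on those 2 pairs.

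**Figure D4:**
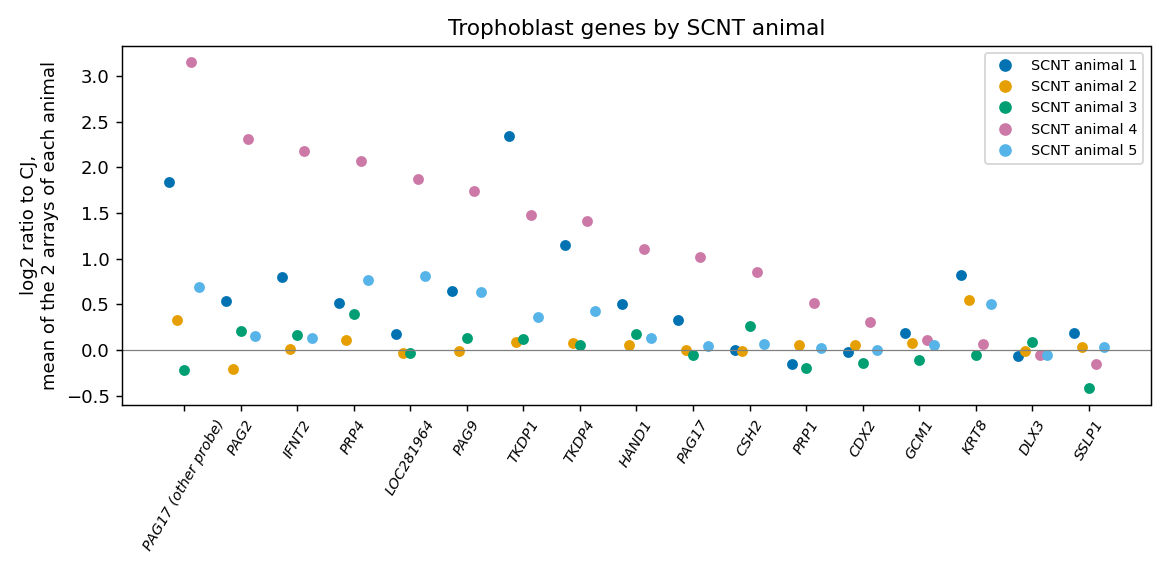
Log2 ratio to CJ (vertical axis) of 1 probe for each of the 16 trophoblast genes, and a second of PAG17, in each SCNT animal, as the mean of the 2 arrays of that animal, ordered by SCNT animal 4. Animal 4 leads most secreted products, animal 1 leads TKDP1 (2.35), and animals 2 and 3 stay near 0 for most probes.

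A few further genes had a wide range among the SCNT animals. DNAJC15, a co-chaperone of mitochondria, was at 2.62 and 3.14 on the arrays of animal 3, against -1.29, -0.63, 0.35 and -0.23 as the means of the others, so its overall difference was 0.21 ± 0.42 (adjusted p = 0.81). SMPX, a small muscle protein, ranged from -3.28 in animal 4 to 0.20 in animal 2 (-1.62 ± 0.38), and MFAP5, a microfibril protein, from -3.34 in animal 4 to -0.37 in animal 1 (-1.62 ± 0.29). UCK1, a uridine kinase, was at 2.62 in animal 4 and 1.09 in animal 2 and between -0.34 and -0.15 in the others, SRSF5, a splicing factor, ran from -0.44 to 2.36, and a probe named BOLA, of the cattle MHC, from -1.18 to 1.81. UCK1 and BOLA did not pass the test (adjusted p = 0.334 and 0.639), and SRSF5 passed at 0.0295 by limma but in 8 of the 10 fits without 1 animal it did not; SMPX did not pass without CJ animal 4 or 5. Each of these ranges compares single animals and was not tested.

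The AI animals were set beside the SCNT animals through the CJ animals both had met, in a fit of 20 arrays with 5 SCNT, 4 AI and 5 CJ animals. Both differences use the same CJ animals, so that an odd CJ animal moves both alike. Against CJ, 957 probes were higher in AI animals (6.92% of those tested) and 1117 lower (8.08%). Counting 1 probe per gene, 654 of the 8073 named genes were higher in AI and 874 lower. In the same fit 1436 probes were higher in SCNT animals and 1558 lower. The AI animals thus had fewer calls over all probes, and the list counts are to be read against that. List counts of both groups are given here from this fit, whose correlation was 0.12. Of the 86 endoplasmic reticulum genes, 54 were lower and 2 higher in AI (median -0.47), beside 58 and 4 in SCNT (median -0.45). Of the 40 interferon-stimulated genes, 33 were higher in AI (median 0.84) and 35 in SCNT. Of the 69 proteoglycan and matricellular genes, 17 were lower in AI (median -0.12) and 34 in SCNT, and of the 42 TGF-beta genes 4 and 15. The differences between these counts were not tested. SEC61B was at -0.89 ± 0.06, HSPA5 at -0.83 ± 0.09 and KDELR3 at -1.48 ± 0.13 in AI. None of the trophoblast genes passed the test in AI (median 0.06). AI animal 3 was on 4 of the 10 AI arrays, so the AI values lean on that animal.

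The difference between SCNT and AI itself passed the test for 39 probes, of which 35 were higher (0.253% of those tested) and 4 lower in SCNT (0.0289%). The largest was that of PLET1: 4.06 in SCNT beside 0.41 ± 0.39 in AI, a difference of 3.65 ± 0.49 (adjusted p = 0.000576). FABP3 stood at 4.27 beside 1.29 ± 0.43 (difference 2.98 ± 0.54, adjusted p = 0.0109) and LY6G6C at 3.62 beside 0.88 ± 0.27 (difference 2.74 ± 0.34, adjusted p = 0.000576). Next came CA2 (1.97 beside 0.32), SLC15A1 (1.61 beside 0.20), the gap junction gene GJB2 (1.34 beside 0.14), FBP1 (1.28 beside 0.00), the vesicle protein RAB3B (1.20 beside 0.17) and SULT1A1 (1.14 beside 0.15). ALAS1 (0.87 beside 0.01), FASN (0.74 beside -0.17) and UQCR11, a subunit of respiratory complex III (0.61 beside -0.26), completed the 12 largest. The FASN values are those of the probe with the larger rise.

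The 4 probes that were lower in SCNT than in AI named PTGDS, a prostaglandin D synthase (0.36 beside 1.5), COL7A1, the anchoring fibril collagen (-0.27 beside 0.43), LTBP3, of the latent TGF-beta complex (-0.22 beside 0.39), and the ribosomal protein RPS3A (-0.49 beside 0.05). The interferon-stimulated genes were further from CJ in SCNT than in AI in their values, for example RSAD2 at 5.44 beside 3.48 ± 0.68, but the difference did not pass the test (1.96 ± 0.86, adjusted p = 0.592), nor did that of OXTR (-0.83 ± 0.41, adjusted p = 0.679) or H19. Between 8 and 53 probes passed when 1 animal was left out: 8 when it was AI animal 3 and 25 when it was AI animal 4. The number was 23, 17 and 18 for SCNT animals 1, 2 and 5, and 23, 24, 9, 13 and 21 for CJ animals 1 to 5. PLET1, LY6G6C, ALAS1 and UQCR11 passed in all 14 of these fits and FABP3 in 7, not passing without SCNT animal 1, 2 or 5, AI animal 3 or CJ animal 1, 3 or 4. GJB2 and RAB3B did not pass without AI animal 3 or CJ animal 3 or 4. Each of the other 9 genes named here failed in 4 to 12 of the fits, that without AI animal 3 among them. In the caruncular pools the direction was the same for several: SCNT minus AI was 0.20 and 1.44 for PLET1, 0.72 and 1.24 for LY6G6C, 0.56 and 1.36 for FABP3, 0.96 and 1.31 for FBP1 and 0.77 and 0.83 for UQCR11, as 2 pairs of pools without a test.

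**Figure D5:**
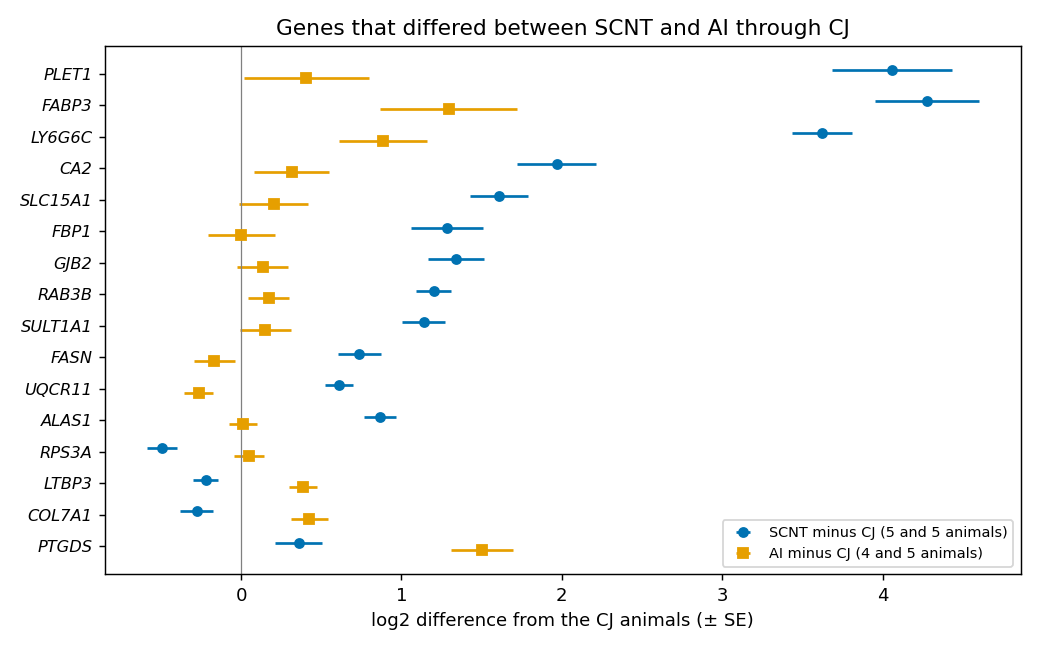
Log2 difference from the CJ animals ± SE (horizontal axis) of SCNT animals (circles, fit of 10 arrays) and AI animals (squares, fit of 20 arrays) for the 12 largest rises and the 4 falls of SCNT against AI past the threshold. PLET1, FABP3 and LY6G6C lie at 3.62 to 4.27 in SCNT and at 0.41 to 1.29 in AI, and PTGDS is the gene whose AI value (1.5) exceeds its SCNT value (0.36) the most.

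Of the 5179 probes without a single gene symbol, 788 (15.2%) passed the test, against 28.7% of the probes with 1 symbol, and they are not named here. Of the 187 genes that had several probes and at least 1 of them past the threshold, 142 had all probes on the same side of 0. In only 29 of the 187 did all probes pass the threshold in the same direction. SON and SYNCRIP, which bind RNA, had probes past the threshold in both directions: SON at 0.44 and -0.32, and SYNCRIP at 0.33, -0.60 and -0.71. Only CNN3, an actin-binding protein, was named among the 2 probes with a dye effect past the threshold: with the SCNT animal in Cy5 it read -1.87 to -1.34 and with it in Cy3 -0.20 to 0.09, so the fitted difference of -0.83 ± 0.07 averages unlike values. The lower SON probe and the higher SYNCRIP probe lost their calls in 6 and 7 of the 10 fits without 1 animal.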

How the data were processed

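The authors deposited log2 ratios of the 2 dyes for each spot of 44 arrays. Base 2 was checked on 331 strongly negative values: 2 raised to each gave a ratio of 4 decimals in 100.0% of them (tolerance 6e-05 on the log scale). For background correction, normalization and the numerator dye, a method is not given in the sources used here. Spots of a probe were averaged; the 10 arrays hold no missing value. Probes were named through the supplied annotation, and 8620 of 8645 symbols were the same through the Entrez number. limma 3.58.1 in R 4.3.3 fitted the difference and a dye term by generalised least squares, with 1 correlation for arrays sharing an animal (0.01 over 10 arrays, 0.12 over 20), and Benjamini-Hochberg adjustment over 13824 probes; the fit was tested on simulated data. Values of single animals are means of 2 arrays and were not tested. Lists use 1 probe per gene. Named genes are the 20 largest rises and falls with the same sign on 10 arrays, the 10 smallest p in each direction, up to 6 of smallest p per list, the 12 widest ranges over SCNT animals, the 12 largest differences from AI in each direction, genes with probes of opposite calls or a dye effect, and 13 genes set by name, some of them from earlier results; members of the interferon, endoplasmic reticulum and trophoblast lists outside this rule were named after their values were seen. Members and lists were chosen with earlier results of these data known. The number of animals limits the precision. Promoter sequences were not analysed here.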

Additional observations from a re-analysis of the deposited data

Results flagged for a closer look

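Of 296 sets of 5 SCNT animals examined, 8 had 1 animal far from the other 4. That is no more than the rate of about 1 in 20 that chance gives, so the values below are described and mark no animal as unusual. Each value is the mean of the 2 arrays of an animal against CJ. CRABP1 and CRABP2 stood apart in animal 2, at -1.22 and -1.31. ENG, an endothelial receptor, and PLK2 stood apart in animal 3, at -0.55 and -1.10. POSTN, a matrix protein, stood apart in animal 5 at -0.92, and SERPINA14 in animal 1 at 1.49. The medians of the fatty acid list (0.17) and of the TGF-beta list (-0.040) stood apart in animal 4.

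For 16 named genes the difference between SCNT and AI through CJ passed limma's test. It was 3.65 for PLET1, 2.98 for FABP3, 2.74 for LY6G6C, 1.65 for CA2, 1.40 for SLC15A1 and 1.28 for FBP1. It was 1.20 for GJB2, 1.03 for RAB3B, 0.99 for SULT1A1, 0.90 for FASN, 0.87 for UQCR11 and 0.86 for ALAS1. It was -1.14 for PTGDS, -0.70 for COL7A1, -0.61 for LTBP3 and -0.54 for RPS3A. Of the 14 fits without 1 animal, PTGDS and RPS3A each lost the call in 12, COL7A1 in 11 and LTBP3 in 6.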

How the results depend on the processing

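With a correlation of 0.3 between arrays that share an animal, 1913 probes differed between SCNT and CJ (924 higher, 989 lower), and with a difference over 1 asked as well, 382 (207 and 175). Leaving out 1 animal gave 2302 to 3265 (1096 to 1585 higher, 1206 to 1680 lower). For SCNT minus AI it gave 8 to 53 (8 to 47 higher, 0 to 6 lower), and without a dye term 1 probe was lower. The cause was not tested. The other settings run kept the counts over all probes within 1.5 times, but not those of every list: trophoblast rises went from 6 to 1 with array weights, and T and NK rises from 3 to 1 in the fit of 20 arrays. No probe lacked a value, so asking for values on all arrays changed nothing. A correlation of 0.12 and leaving out the array of SCNT animal 3 with CJ animal 2 were chosen after seeing the data and gave 2770 and 3283. The sign turned for 4 genes, none past the threshold: BOLA without SCNT animal 4 (-0.030, the range without 1 animal reaching 0.76), DNAJC15 without SCNT animal 3 (-0.45), CJ animal 1 (-0.16) or that array (-0.087; range up to 0.59), PTGS2 on the second spot (0.044) and without SCNT animal 4 (0.11) or CJ animal 5 (0.053; range from -0.13), and SERPINA14 without SCNT animal 1 (-0.18) or CJ animal 4 (-0.50; range up to 0.60). Each array is itself a direct pair of an SCNT and a CJ animal; no block by replicate number was added, since the labels give the groups no shared numbers. The number of animals limits all of these.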
